A study of Mus musculus with 9 samples.

Results

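The matrix metalloproteinases (MMPs) and the tissue inhibitors of metalloproteinases (TIMPs) were followed in the midbrain of DJ-1-deficient mice. The family comprised 10 genes chosen by symbol, 6 MMPs (Mmp8, Mmp14, Mmp15, Mmp16, Mmp17 and Mmp24) and the 4 TIMPs (Timp1, Timp2, Timp3 and Timp4), out of 26602 genes with a count in at least 1 library. Midbrain tissue that included the substantia nigra was taken from 4 DJ-1+/+ and 5 DJ-1-/- mice of 3 to 4 months of age, and polyadenylated RNA was read from its 3′ end with a QuantSeq kit. The DJ-1-/- mice carried the targeted allele of Park7, the gene that encodes DJ-1, in every cell, and came from heterozygous parents on a C57BL/6 background, and neither genotype was treated. The tissue was a bulk dissection, so that fewer cells of a type and less RNA per cell cannot be told apart.

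MMPs are zinc-dependent proteases that cut extracellular matrix and cell-surface proteins, and they are made as inactive precursors whose propeptide has to be removed. Most of the MMPs followed here are membrane-type enzymes, held at the cell surface by a transmembrane segment (Mmp14, Mmp15, Mmp16 and Mmp24) or by a lipid anchor (Mmp17), whereas Mmp8 is a secreted collagenase stored in neutrophil granules. TIMPs are small secreted proteins that block the active site of MMPs, and in the brain this balance bears on the vascular basement membrane, perineuronal matrix and synaptic adhesion proteins.

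A stretch shared by the members is shown for each side of the family, the zinc-binding motif of the MMPs and the start of the mature TIMPs. They were read from the GENCODE M21 transcripts (GRCm38), 5′ to 3′ on the coding strand. In the MMPs, the 33 bases encode the zinc-binding motif of the catalytic domain, with capitals for the codons of the 3 zinc-binding histidines, the catalytic glutamate and the conserved glycine.
Mmp8 (chr9:7563086-7563118, plus strand): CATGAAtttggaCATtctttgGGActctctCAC
Mmp14 (chr14:54437627-54437659, plus strand): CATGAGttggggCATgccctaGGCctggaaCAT
Mmp15 (chr8:95368585-95368617, plus strand): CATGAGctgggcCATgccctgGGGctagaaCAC
Mmp16 (chr4:18051748-18051780, plus strand): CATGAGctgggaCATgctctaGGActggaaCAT
Mmp24 (chr2:155807427-155807459, plus strand): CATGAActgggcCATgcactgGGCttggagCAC
Mmp17 (chr5:129596597-129596629, plus strand): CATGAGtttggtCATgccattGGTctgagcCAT
All 6 stretches lay in exon 5 of the longest coding transcript. Mmp14 and Mmp16 were the closest pair and differed at 4 of 33 bases, while Mmp8 differed from each membrane-type member at 11 to 13 bases. Searched in frame over the longest coding sequence of 21790 genes, the zinc-binding motif was found in 69, or 0.317%.

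In the TIMPs, the 24 bases encode the start of the mature protein, which enters the active site of the protease, with capitals for its 2 cysteine codons.
Timp1 (chrX:20871111-20871134, plus strand): TGTagcTGTgccccaccccaccca
Timp2 (chr11:118354989-118355012, minus strand): TGCagcTGCtccccggtgcacccg
Timp3 (chr10:86300923-86300946, plus strand): TGCacaTGCtctcccagccatccc
Timp4 (chr6:115251668-115251691, minus strand): TGCagcTGTgcgcctgcgcacccc
The stretch lay in exon 2 of Timp1 and in exon 1 of the others. Timp4 was closest to Timp1 and Timp2, with 6 of 24 bases different from each, and Timp3 differed from the others at 9 to 11 bases. The pattern of residues searched for was found in 5 of 21790 genes (0.0229%), the 4 TIMPs and Spred3.

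Each library counted unique molecular identifiers (UMIs), random tags by which amplified copies of 1 RNA molecule are recognised, and levels are given as counts per 1000000 of the library total (cpm). Because 1 fragment near the end is read from each transcript, counts do not grow with transcript length, and levels of different genes are set side by side here. How completely each gene was counted was not tested. DJ-1+/+ libraries held 841974 to 886085 counts and DJ-1-/- libraries 967751 to 1098125, so every DJ-1-/- library was deeper, and 3 counts corresponded to 2.73 to 3.56 cpm. Park7, the check of the labels, averaged 135 ± 15.7 cpm (SD, n = 4) in controls against 20.4 ± 4.54 cpm (SD, n = 5) without DJ-1, and fell by 2.71 on the log2 scale (edgeR adjusted p = 7.39e-08). Dopaminergic neuron markers were present in every library, 558 to 1039.9 cpm summed in DJ-1+/+ and 815 to 1089 cpm in DJ-1-/- mice, and all 10 were higher in DJ-1-/- mice, 4 of them at an unadjusted p under 0.05. DJ-1+/+ replicate 1 held 1339.7 cpm of 10 cerebellar neuron markers, against at most 612 cpm elsewhere, and DJ-1+/+ replicate 4 held 1230.1 cpm of 10 choroid plexus markers, against at most 701 cpm elsewhere. All 10 genes of each of those lists were lower in DJ-1-/- mice, 6 and 5 of them with an unadjusted p under 0.05. Almost no Xist, the RNA that coats the inactive X chromosome, was counted in replicates 1 and 4 of DJ-1+/+ or in replicate 5 of DJ-1-/-, and these mice expressed the Y-linked gene Ddx3y, so the sexes were unevenly spread over the genotypes. The part of depth, dissection markers and sex in the values of the members was not tested except where given.

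TIMPs were the more abundant side of the family. The 4 TIMPs together gave 595 to 657 cpm over the 9 libraries and the 6 MMPs 277 to 319.6 cpm, or 1.88 to 2.27 TIMP counts for each MMP count. The ratio averaged 2.11 ± 0.159 (SD, n = 4) in DJ-1+/+ against 2.02 ± 0.167 (SD, n = 5) in DJ-1-/- mice, and its ranges of 1.94 to 2.26 and 1.88 to 2.27 overlapped.

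By mean level over all 9 libraries (for Timp4 the range is given) the order was Timp2 (275 cpm), Timp3 (216 cpm), Timp4 (111 to 146 cpm), Mmp16 (74.4 cpm), Mmp14 (61.2 cpm), Mmp15 (60.7 cpm), Mmp17 (59.6 cpm), Mmp24 (44.4 cpm), Timp1 (1.73 cpm) and Mmp8 (0.875 cpm). The first 4 held that order in 9 of 9 libraries and their ranges did not overlap. Mmp14, Mmp15 and Mmp17 could not be ordered, since Mmp14 exceeded Mmp15 in 5 of 9 libraries and Mmp15 exceeded Mmp17 in 3 of 9. Mmp16 was above Mmp14 in 7 of 9 libraries and Mmp17 above Mmp24 in 7 of 9, with overlapping ranges in both cases. Mmp24 was above Timp1 in 9 of 9 libraries, and Timp1 and Mmp8 overlapped near the limit of detection.

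**Figure D1:**
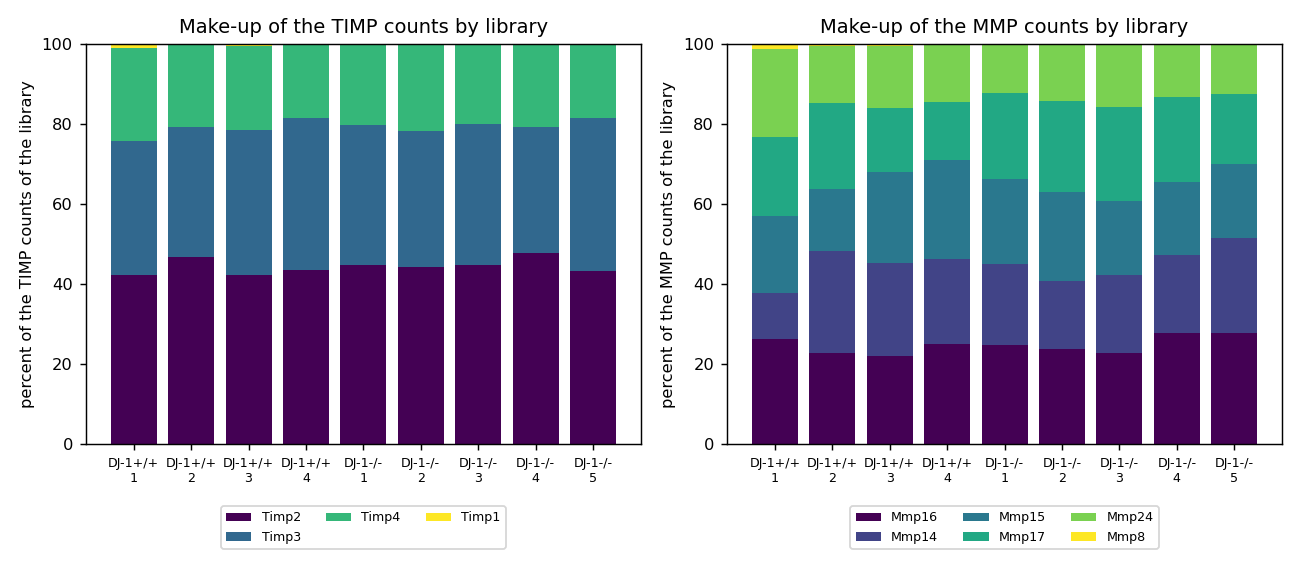
Share of each TIMP in the TIMP counts (left) and of each MMP in the MMP counts (right), in percent, 1 bar for each of the 9 libraries. Timp2 made up 42.2 to 47.7% of the TIMP counts, and Mmp14 had its smallest share, 11.6%, in DJ-1+/+ replicate 1.

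The make-up of the TIMP counts varied little between mice. Timp2 made up 42.2 to 47.7% of them, Timp3 31.6 to 38.2% and Timp4 18.3 to 23.4%, with overlap between genotypes for each. The MMP counts were shared more evenly. Mmp16 gave 21.9 to 27.7% of them, Mmp15 15.4 to 24.9%, Mmp17 14.4 to 23.5%, Mmp24 12.2 to 21.9% and Mmp14 11.6 to 25.5%. Both the smallest share of Mmp14 and the largest share of Mmp24 were in DJ-1+/+ replicate 1.

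The comparison of DJ-1-/- with DJ-1+/+ mice asked whether loss of DJ-1 was accompanied by other levels of these proteases and inhibitors. Of the 10 genes, 9 had at least 10 counts over the 9 libraries and were tested, and Mmp8 was not. By the quasi-likelihood test of edgeR no member had an adjusted p under 0.05, against 0.00552% of the 18127 genes tested, which was Park7 alone. At an unadjusted p under 0.05 there was 1 member, Timp1, against 2.83% of the genes tested, and DESeq2's test gave 0 members at either threshold. The cpm of 1 member, again Timp1, did not overlap between genotypes, against 1.25% of the genes tested. Timp1 had 14 counts in all and was tested only through its 10 DJ-1+/+ counts. Before scaling to cpm, its counts overlapped between genotypes. In DJ-1-/- mice 3 of the 9 tested members had the higher level and 6 the lower, their median log2 fold change being −0.04, beside 9412 higher, 8715 lower and a median of 0.008 over all genes tested. The adjusted p was 1 for each of the 9, and the exact permutation p of Mmp14, Mmp15, Mmp16, Timp2, Timp3 and Timp4 ran from 0.206 to 1.

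**Figure D2:**
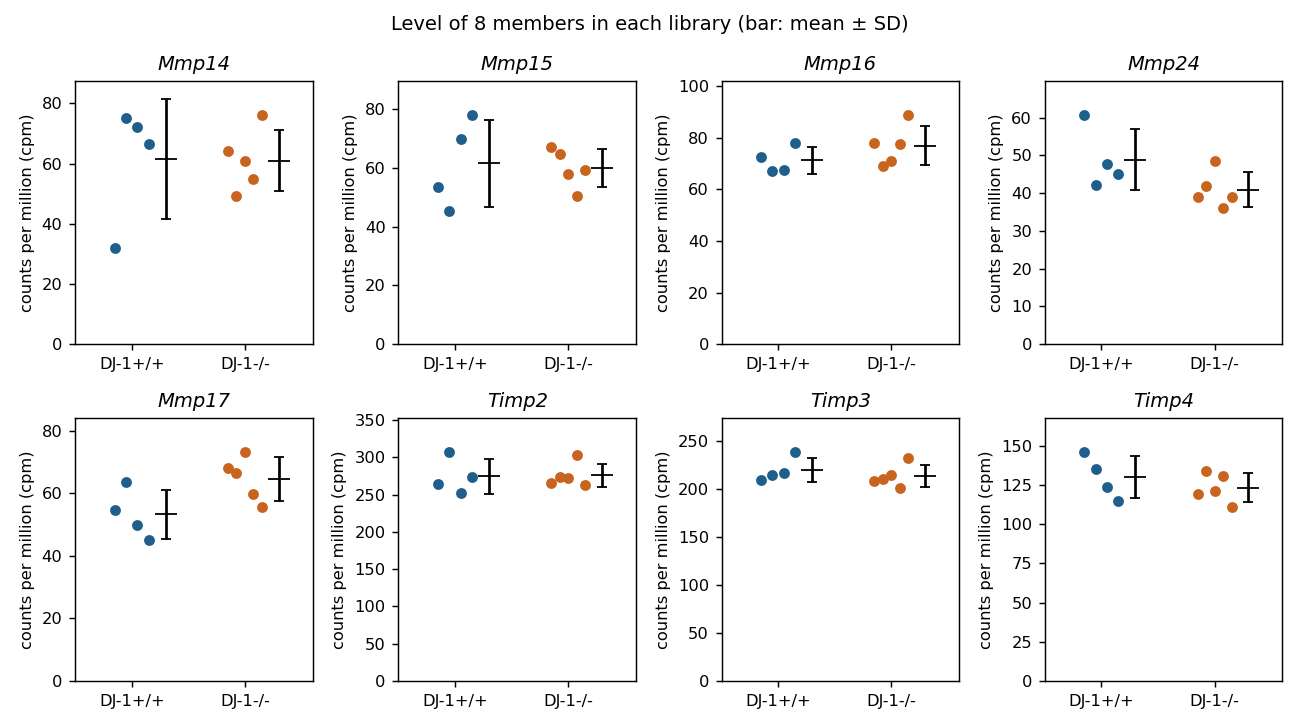
Level in cpm (vertical axes, each from 0) of 8 members in each of 4 DJ-1+/+ (blue) and 5 DJ-1-/- (orange) libraries, with the mean ± SD as a black bar. The genotypes overlap in all 8 panels, and DJ-1+/+ replicate 1 stands at 32.1 cpm for Mmp14 and at 60.6 cpm for Mmp24.

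Timp2 encodes the inhibitor that, besides blocking MMPs, forms the complex with Mmp14 in which pro-Mmp2 is activated. It was 264, 307, 252 and 274 cpm in DJ-1+/+ mice, against 266, 274, 272, 303 and 263 cpm in DJ-1-/- mice. The genotypes spanned nearly the same range, with replicate 2 highest in the first and replicate 4 in the second. The means were 274 ± 23.5 cpm (SD, n = 4) against 276 ± 15.8 cpm (SD, n = 5). The log2 fold change was 0.0064 (SE 0.07, 95% interval −0.14 to 0.15, unadjusted p = 0.929 by edgeR), which on the linear scale allowed 0.906-fold to 1.11-fold.

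Timp3 encodes the TIMP that binds to the extracellular matrix and also inhibits several ADAM and ADAMTS proteases. It was 209, 214, 216 and 238 cpm in DJ-1+/+ and 208, 210.4, 214, 200.5 and 232 cpm in DJ-1-/- mice. One mouse of each genotype stood above a tight remainder, and the ranges overlapped. The log2 fold change was −0.04 (SE 0.07, 95% interval −0.19 to 0.11, unadjusted p = 0.555 by edgeR). Over all 9 libraries the coefficient of variation of Timp3 was 5.53%, no larger than the 7% that counting alone gives at its depth.

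Timp4 encodes the TIMP with the most restricted expression, found chiefly in brain, heart and muscle. It was 146, 135, 124 and 115 cpm in DJ-1+/+ and 119, 134, 121, 131 and 111 cpm in DJ-1-/- mice. The highest value was in DJ-1+/+ replicate 1 and the lowest in DJ-1-/- replicate 5, with overlap in between. The means were 130.2 ± 13.4 cpm (SD, n = 4) against 123 ± 9.33 cpm (SD, n = 5), with a log2 fold change of −0.08 (SE 0.09, 95% interval −0.26 to 0.10, unadjusted p = 0.389 by edgeR). For these 3 TIMPs the intervals thus allowed at most 0.836-fold to 1.11-fold.

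Mmp14 encodes the membrane-type collagenase that activates pro-Mmp2. Its level was 32.1, 75, 72.1 and 66.6 cpm in DJ-1+/+ mice, against 64.1, 49.2, 60.9, 54.8 and 76 cpm in DJ-1-/- mice. DJ-1+/+ replicate 1, the library rich in cerebellar markers, was the lowest of the 9, and the other DJ-1+/+ mice lay in the upper part of the DJ-1-/- range. The means were 61.4 ± 19.9 cpm (SD, n = 4) against 61 ± 10.2 cpm (SD, n = 5), with a log2 fold change of −0.01 (SE 0.20, 95% interval −0.44 to 0.41, unadjusted p = 0.943 by edgeR). Its coefficient of variation of 23.1%, against 13.1% from counting, was the widest of the 8 members above the detection limit.

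The log2 fold change of Mmp14 ranged from −0.22 to 0.09 as each library was left out, with −0.22 when DJ-1+/+ replicate 1 was absent. The 6 libraries with Xist expression leave out that library, DJ-1+/+ replicate 4 and DJ-1-/- replicate 5, which had the highest Mmp14 of all. In these 6, Mmp14 was 75 and 72.1 cpm in DJ-1+/+ and 49.2 to 64.1 cpm in DJ-1-/- mice. Over all genes, 498 had an unadjusted p under 0.05 by edgeR in these 6 libraries. For Mmp14 the log2 fold change there was −0.37 (95% interval −0.72 to −0.02, unadjusted p = 0.0399, adjusted p = 1 by edgeR). With DJ-1+/+ libraries 1 and 4 left out it was −0.27 (unadjusted p = 0.145 by edgeR), and with Xist as a covariate over all 9 libraries −0.05 (unadjusted p = 0.796 by edgeR). The part of the cerebellar markers and of sex in these values was not tested.

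**Figure D3:**
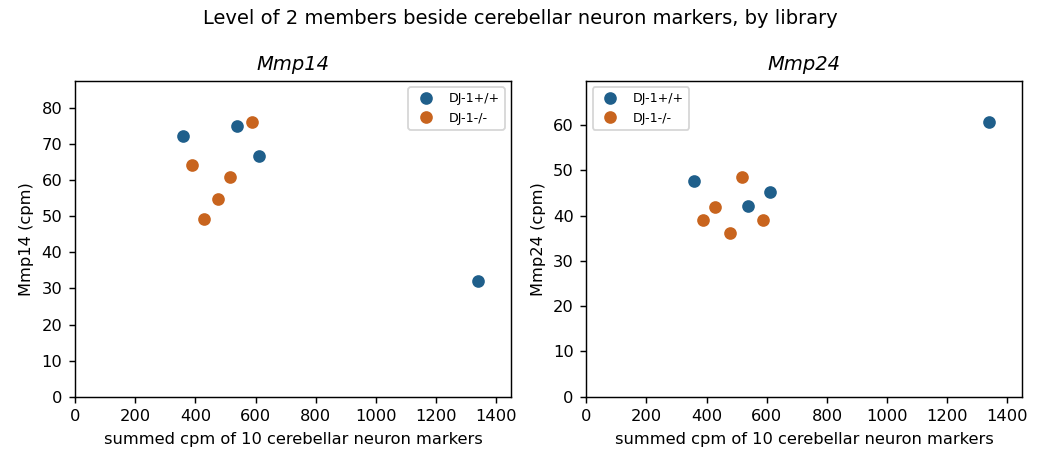
Level of Mmp14 (left) and Mmp24 (right) in cpm against the summed cpm of 10 cerebellar neuron markers, 1 point for each of 4 DJ-1+/+ (blue) and 5 DJ-1-/- (orange) libraries. DJ-1+/+ replicate 1, at 1339.7 cpm of markers, has the lowest Mmp14 and the highest Mmp24, while the other libraries lie between 358 and 612 cpm of markers.

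Mmp24 encodes a membrane-type MMP expressed mainly in the nervous system, where it cleaves N-cadherin. It was 60.6, 42.1, 47.7 and 45.1 cpm in DJ-1+/+ and 39, 41.9, 48.5, 36.2 and 39 cpm in DJ-1-/- mice. DJ-1+/+ replicate 1 was the highest of the 9, and the other DJ-1+/+ values lay inside the DJ-1-/- range. The log2 fold change was −0.25 (SE 0.16, 95% interval −0.59 to 0.08, unadjusted p = 0.125 by edgeR; exact permutation p = 0.127). It was −0.14 without DJ-1+/+ replicate 1. The exact permutation p was 0.0286 without DJ-1-/- replicate 3 and 0.107 to 0.286 without each of the others.

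Mmp15, a membrane-type MMP related to Mmp14, was 53.4, 45.5, 69.8 and 77.9 cpm in DJ-1+/+ and 67.1, 64.7, 57.8, 50.6 and 59.4 cpm in DJ-1-/- mice. The DJ-1+/+ mice were spread around the whole DJ-1-/- range. Its log2 fold change was −0.04 (SE 0.16, 95% interval −0.38 to 0.30, unadjusted p = 0.802 by edgeR). Mmp16, a membrane-type MMP that can also activate pro-Mmp2, was 72.4, 67.1, 67.5 and 77.9 cpm in DJ-1+/+ and 78.1, 69.2, 71.2, 77.5 and 88.7 cpm in DJ-1-/- mice. The highest value was in DJ-1-/- replicate 5 and the ranges overlapped. The log2 fold change of Mmp16 was 0.11 (SE 0.11, 95% interval −0.13 to 0.35, unadjusted p = 0.347 by edgeR). Mmp16 lies on chromosome 4 like Park7, 132.8 Mb away.

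Mmp17, the lipid-anchored member, had the smallest p of the members well above the detection limit. It was 54.6, 63.6, 50 and 45.1 cpm in DJ-1+/+ and 68.1, 66.5, 73.2, 59.9 and 55.5 cpm in DJ-1-/- mice. DJ-1-/- replicates 1, 2 and 3 exceeded every DJ-1+/+ mouse, and replicates 4 and 5 did not. The means were 53.4 ± 7.87 cpm (SD, n = 4) against 64.7 ± 6.96 cpm (SD, n = 5). The log2 fold change was 0.28 (SE 0.13, 95% interval −0.008 to 0.56, unadjusted p = 0.056 by edgeR; exact permutation p = 0.0635), which allowed 0.994-fold to 1.47-fold. The unadjusted p was 0.0205 without DJ-1+/+ replicate 2 and 0.0349 without DJ-1-/- replicate 5, but 0.0604 to 0.174 without each of the other libraries in turn. It was 0.146 with the Xist covariate, and 0.279 with a log2 fold change of 0.19 when DJ-1+/+ libraries 1 and 4 were left out.

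**Figure D4:**
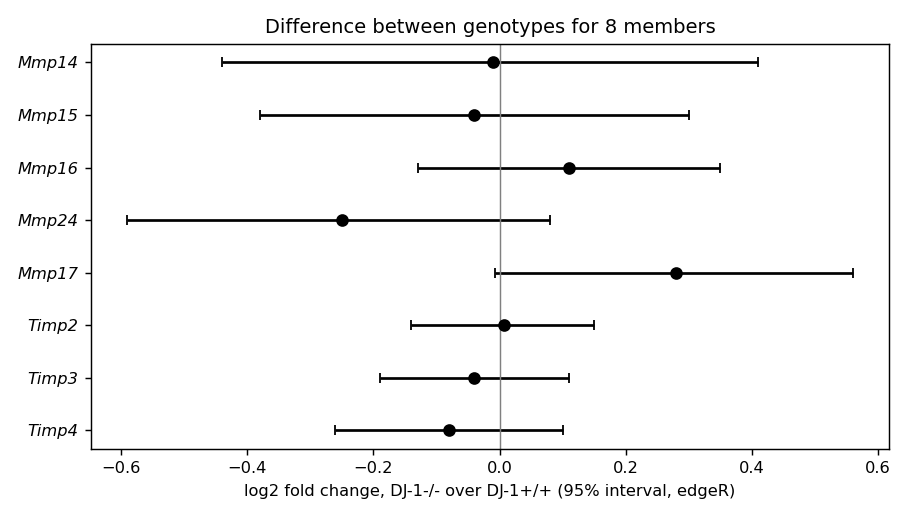
Log2 fold change of DJ-1-/- over DJ-1+/+ mice (horizontal axis) with its 95% interval from edgeR for 8 members, 4 and 5 libraries. Every interval includes 0, with the narrowest for Timp2 and Timp3 and the widest for Mmp14.

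Timp1, the TIMP best known for its induction in injury and inflammation, was barely detected. The DJ-1+/+ mice gave 5, 1, 3 and 1 counts, against 1, 1, 1, 0 and 1 from the DJ-1-/- mice. The 5 counts came from DJ-1+/+ replicate 1, the library rich in cerebellar markers. The counts overlapped at 1, in 2 DJ-1+/+ and 4 DJ-1-/- libraries. In cpm the genotypes did not overlap, because 1 count was worth 1.13 to 1.19 cpm in the shallower DJ-1+/+ libraries and 0.911 to 1.03 cpm in the deeper DJ-1-/- libraries. The exact permutation p of 0.0159 for cpm, the smallest that 4 against 5 mice allow, was 0.238 on the raw counts and 0.0952 on counts thinned to equal library totals, both chosen after seeing the data. The edgeR fit on the thinned counts, which was planned, gave a log2 fold change of −2.33 (unadjusted p = 0.022), so the tests of those counts differed. Pooled over mice, 10 counts gave 2.88 cpm (exact Poisson 95% interval 1.38 to 5.3) in DJ-1+/+ and 4 counts gave 0.79 cpm (0.215 to 2.02) in DJ-1-/-. The pooled ratio of DJ-1-/- to DJ-1+/+ mice was 0.274 (exact 95% interval 0.0627 to 0.95). These intervals cover counting error only, not the spread between mice. The log2 fold change of Timp1 was −1.72 (SE 0.78, 95% interval −3.36 to −0.07, unadjusted p = 0.0418 by edgeR). Timp1 passed the filter of 10 counts through its DJ-1+/+ counts, and it was no longer tested when DJ-1+/+ replicate 1 was left out.

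Mmp8, the neutrophil collagenase, had 7 counts in all. The DJ-1+/+ mice gave 3, 1, 1 and 0 of them, with the 3 in replicate 1, the library rich in cerebellar markers. The DJ-1-/- mice gave 0, 0, 0, 1 and 1, so no library exceeded the 3 counts taken as the limit. Pooled over mice this was 1.44 cpm (exact Poisson 95% interval 0.468 to 3.37) in DJ-1+/+ and 0.395 cpm (0.0479 to 1.43) in DJ-1-/-, and the intervals overlapped. The exact permutation p was 0.127 in cpm, 0.444 on the raw counts, and 0.0357 when DJ-1+/+ replicate 4 was left out. Without each of the other libraries in turn it ran from 0.143 to 0.286. With DJ-1+/+ replicate 4 left out the counts still overlapped at 1, and only the cpm did not. A count stood for 1.14 and 1.16 cpm in DJ-1+/+ replicates 2 and 3, against 1.03 and 0.974 cpm in DJ-1-/- replicates 4 and 5. The pooled ratio of DJ-1-/- to DJ-1+/+ mice was 0.274, and its exact 95% interval of 0.0261 to 1.67, for counting error only, allowed a lower level or one up to 1.67-fold higher.

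**Figure D5:**
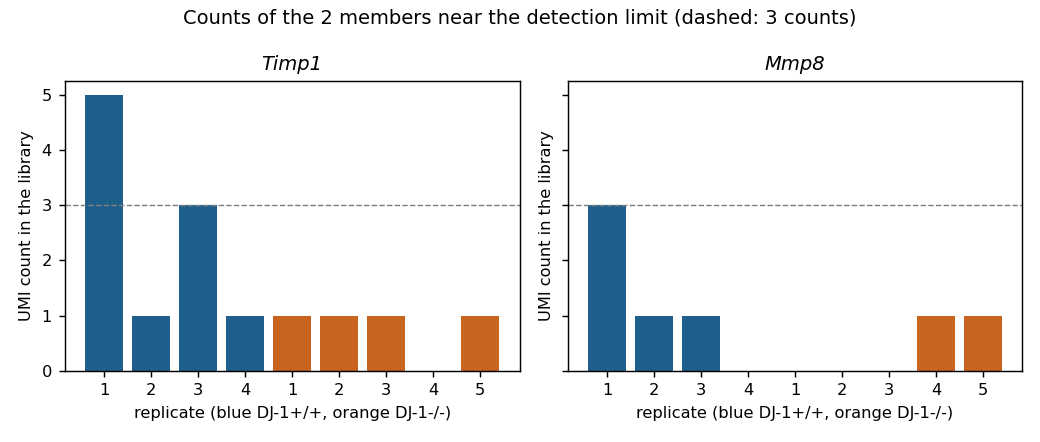
UMI counts of Timp1 (left) and Mmp8 (right) in each library, DJ-1+/+ replicates 1 to 4 in blue and DJ-1-/- replicates 1 to 5 in orange, with 3 counts as a dashed line. One library, DJ-1+/+ replicate 1 for Timp1, is above the line.

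Markers of neutrophils, the cells best known for Mmp8, were also near the limit. Of 10 markers 9 had a count, with Cxcr2 not listed in any library, and their sum was 6.77 to 21.4 cpm in DJ-1+/+ and 1.95 to 21.7 cpm in DJ-1-/- mice. S100a8 and S100a9, the calprotectin subunits, had 42 and 26 counts over the 9 libraries, and the granule gene Ngp had 11. Camp, Ltf, Elane, Mpo, Retnlg and Lcn2 had 1 to 6 counts each and were not tested. The 3 markers tested had unadjusted p from 0.579 to 0.811 by edgeR.

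The members are spread over 10 chromosomes of GRCm38. Mmp8 spans chr9:7558456-7568485, Mmp14 chr14:54431612-54445364, Mmp15 chr8:95352268-95375080, Mmp16 chr4:17852893-18119145, Mmp17 chr5:129584169-129611099 and Mmp24 chr2:155775342-155818366. Timp1 spans chrX:20870166-20874735, Timp2 chr11:118301069-118355740, Timp3 chr10:86300372-86349506 and Timp4 chr6:115241892-115252205. Several share their locus with another gene. Timp1, Timp3 and Timp4 each lie inside a synapsin gene on the opposite strand, Timp1 in Syn1, Timp3 in Syn3 and Timp4 in Syn2. Synapsins are presynaptic phosphoproteins that tether vesicles. Timp3 shared 1733 exonic bases with Syn3 and Timp4 90 with Syn2, while Timp1 shared 0 with Syn1. The end of Mmp24 overlapped the end of BC029722, on the opposite strand, by 637 exonic bases, where 3′ reads fall. Whether strand was used in counting was not given in the sources used here, and without strand the reads of such partners cannot be told apart. That limit also holds for the order of levels and the ratio of TIMP to MMP counts. BC029722 had a mean of 94.1 cpm, Syn2 255 cpm, Syn1 145 cpm and Syn3 8.91 cpm, so the Syn3 counts were few beside those of Timp3. Their unadjusted p ran from 0.18 to 0.8 by edgeR. Cep295nl, inside Timp2 on the same strand, had 7 counts, Gm17482, around Timp4 on the opposite strand, had 5, and the pseudogene Gm11860, inside Mmp16, had 0.

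Beyond the members, 17 other MMP genes were looked up. Counts were found for 10 of them and 6 were tested (Mmp2, Mmp9, Mmp11, Mmp19, Mmp23 and Mmp25), 3 higher and 3 lower in DJ-1-/- mice, none of them at an unadjusted p under 0.05. Together the 17 gave a mean of 35.8 cpm, less than Mmp24 alone. Mmp9, gelatinase B, was the most abundant and averaged 9.55 ± 4.41 cpm (SD, n = 4) in DJ-1+/+ against 9.92 ± 4.05 cpm (SD, n = 5) in DJ-1-/- mice. Mmp25, a lipid-anchored MMP of leukocytes, had the smallest p among them, with 6 and 16 counts (unadjusted p = 0.25 by edgeR).

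Genes that activate or restrain MMPs, 21 in all, gave 19 tested, 10 higher and 9 lower, with a median log2 fold change of 0.01. Plau, the urokinase-type plasminogen activator, had the smallest p of that list at 13 counts (0.579 ± 0.669 cpm, n = 4, and 2.2 ± 0.893 cpm, n = 5; unadjusted p = 0.065 by edgeR, exact permutation p = 0.0476). It passed the filter of 10 counts through its DJ-1-/- counts, which were 3, 1, 3, 2 and 2, against 1, 0, 0 and 1 in DJ-1+/+ mice. Cst3, the protease inhibitor cystatin C, was the most abundant gene of the list at 342 ± 53.7 cpm (SD, n = 4) against 359 ± 35.3 cpm (SD, n = 5). The 26 ADAM and ADAMTS proteases divided into 13 higher and 13 lower. Adamts10 had the smallest p of these at 28.1 ± 6.16 and 20.9 ± 2.37 cpm (log2 fold change −0.42, SE 0.21, unadjusted p = 0.0656 by edgeR), and Adam22, a synaptic receptor without protease activity, was the most abundant at 137 and 142 cpm.

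Matrix and cell-surface substrates numbered 33, of which 17 were higher and 16 lower without DJ-1, the median log2 fold change being 0.01. Bcan, the brain proteoglycan brevican, was the most abundant at 159 ± 16.6 cpm (SD, n = 4) against 163 ± 12.3 cpm (SD, n = 5). Lama5, a laminin chain of vascular basement membranes, had the smallest p at 8.64 ± 3.72 and 13.2 ± 4.39 cpm (unadjusted p = 0.116 by edgeR). In these 3 lists, and in the other MMPs and the synapsins, no gene had an unadjusted p under 0.05, against the 2.83% of all genes tested.

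Markers of the cells that could supply these transcripts were compared in the same way. The 10 astrocyte markers summed to 1900.2 to 2095 cpm in DJ-1+/+ and 1909 to 2074 cpm in DJ-1-/- mice, and the 10 microglia markers to 762 to 797 and 735 to 841 cpm. Oligodendrocyte precursor markers ran from 725 to 776 and from 738 to 771 cpm, oligodendrocyte markers from 2234 to 2928 and from 2446 to 2779 cpm, and endothelial markers from 601 to 739 and from 589.6 to 699 cpm. Mural cell markers ran from 379 to 434 and from 364 to 435 cpm, and meningeal fibroblast markers from 576 to 813 and from 575 to 817 cpm, with Igf2 not listed. Serotonergic markers ran from 117 to 344 and from 82.8 to 394 cpm and blood markers from 432 to 664 and from 382 to 525 cpm. The ranges of the genotypes overlapped for each of these lists. By gene, 8 of 9 endothelial, 7 of 9 meningeal fibroblast, 6 of 9 oligodendrocyte, 6 of 10 astrocyte and 4 of 5 blood markers were lower in DJ-1-/- mice. Higher were 7 of 10 microglia, 5 of 9 mural, 4 of 8 precursor and 4 of 5 serotonergic markers. The median log2 fold changes of these lists ran from −0.15 to 0.08. Among the genes of these lists 1 mural and 1 blood marker had an unadjusted p under 0.05 by edgeR, both lower in DJ-1-/- mice.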

How the data were processed

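Midbrain RNA of 4 DJ-1+/+ and 5 DJ-1-/- mice was sequenced as 3′ mRNA libraries (QuantSeq FWD). The authors deposited 1 file of UMI counts per mouse, whole numbers by Ensembl identifier without normalization. Per the labels' processing notes the tools were fastp 0.20.0, STAR 2.7.3a, featureCounts 2.0.0 (Subread) and UMI-tools 1.0.0 with GRCm38. Groups and replicate numbers came from the sample titles, and p-values measure the spread between these mice. Pairs of libraries of 1 genotype differed by a chi-square per degree of freedom of 1.07 to 2.27 over 16 pairs, so no counts were copied. Counting error alone gives about 1, so this check cannot tell repeat libraries of 1 mouse from libraries of different mice.

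The counts were joined by identifier, with 0 for a gene not listed in a library, and 26570 of 26602 genes matched GENCODE M21. The 18127 genes whose counts summed to 10 or more were tested with edgeR 4.0.16 (TMM, glmQLFit, glmQLFTest, genotype only) in R 4.3.3, with Benjamini-Hochberg adjustment. SE is the log2 fold change over the square root of F. Exact two-sided permutation tests of cpm ran over 126 splits (smallest p = 0.0159). Alternatives were RLE size factors, library totals, DESeq2 1.42.0, no filter, filterByExpr, a replicate block, an Xist covariate, libraries with Xist expression only, thinned counts (841974 per library), each library left out, and DJ-1+/+ libraries 1 and 4 left out. The edgeR and DESeq2 scripts were tested on simulated data. The members and lists were chosen with earlier results of these data known. Named genes are the members, Park7, Xist, Ddx3y, genes overlapping a member, all neutrophil markers, and from each pathway list the gene with the smallest p and the most abundant gene. The most abundant gene of each marker list was also in that rule, and its list is given as a sum.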

Additional observations from a re-analysis of the deposited data

Results flagged for a closer look

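In 122 groups of 4 or 5 libraries, 15 had a value set apart from the others by Dixon's criterion. For continuous values chance flags about 1 in 20 groups, or 6.1. A lone count among zeros is always flagged, so the 15 cannot be set against the 6.1. Among the members, Timp1 was at 0 cpm in DJ-1-/- replicate 4 against 0.911 to 1.03 cpm in the others, a gap of 1 count. Timp2 was 303 cpm in DJ-1-/- replicate 4 against 263 to 274 cpm in the other DJ-1-/- mice. Mmp9 was 2.92 cpm in DJ-1-/- replicate 5 against 10.3 to 13 cpm. Syn2, which surrounds Timp4, was 224 cpm in DJ-1+/+ replicate 1 against 259 to 264 cpm, and Cep295nl, inside Timp2, was at 0 cpm there against 1.13 to 1.16 cpm.

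The neutrophil genes were set apart by 1 or 2 counts against none in the others of the genotype. These were Ltf at 1.19 cpm in DJ-1+/+ replicate 1 and at 1.82 cpm in DJ-1-/- replicate 2, Elane in DJ-1-/- replicate 3 (1.03 cpm), Mpo in DJ-1+/+ replicate 3 (1.16 cpm), Retnlg at 1.19 cpm in DJ-1+/+ replicate 1 and at 1.03 cpm in DJ-1-/- replicate 4, and Lcn2 in DJ-1-/- replicate 2 (0.911 cpm). Zic1, the most abundant cerebellar neuron marker, was 230.0 cpm in DJ-1-/- replicate 5 against 120.1 to 149 cpm. That library also stood apart for Xist (1.95 cpm against 153 to 176 cpm) and for Ddx3y (148 cpm against 0 to 4 cpm).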

How the results depend on the processing

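No member had an adjusted p under 0.05 under any of the 19 alternatives. Members with an unadjusted p under 0.05 numbered 1 in the reported test, 0 with DESeq2, filterByExpr, the Xist covariate, and DJ-1+/+ libraries 1 and 4 left out, and 0 to 2 as each library was left out, with 2 without DJ-1+/+ replicate 2. Timp1 had an unadjusted p of 0.022 to 0.106 in the 15 alternatives where it was tested, all of which kept DJ-1+/+ replicate 1, the library with 5 of its 14 counts, so this range says nothing of its stability without that library. Over all genes, the count with an adjusted p under 0.05 was 1, and 36 without a filter, 8 with the replicate block, 3 in libraries with Xist expression, and 1 to 2 as each library was left out, with 2 without DJ-1+/+ replicate 2 or 3. The count with an unadjusted p under 0.05 was 513, and 235 with DESeq2, 802 without a filter, 338 with filterByExpr, and 338 to 732 as each library was left out, with 338 without DJ-1-/- replicate 2.

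Over the 19 alternatives the log2 fold change ran from 0.05 to 0.20 for Mmp16, from 0.19 to 0.37 for Mmp17, from −0.33 to −0.12 for Mmp24, from −0.08 to −0.0012 for Timp3 and from −0.13 to −0.02 for Timp4. The values nearest 0 with 1 library left out were 0.05 for Mmp16 without DJ-1-/- replicate 5 (unadjusted p = 0.713 by edgeR), −0.0012 for Timp3 without DJ-1+/+ replicate 4 (unadjusted p = 0.988) and −0.02 for Timp4 without DJ-1+/+ replicate 1 (unadjusted p = 0.856). The sign of Mmp14 turned in 5, all with a library left out (−0.22 to 0.09). Mmp15 turned to 0.06 in libraries with Xist expression and to 0.06 without DJ-1+/+ libraries 1 and 4, and ranged from −0.17 to 0.09 as each library was left out. Timp2 turned to −0.0044 with RLE, −0.0045 with DESeq2, −0.0027 with filterByExpr, −0.01 with the Xist covariate, −0.0076 in libraries with Xist expression, and −0.02 without DJ-1+/+ libraries 1 and 4, and ranged from −0.04 to 0.06 as each library was left out. The cause was not tested.

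Same-numbered mice did not deviate together (r = 0.29, 0.05, −0.10 and −0.17 for pairs 1 to 4), and 1 of the 4 correlated best with its own number, so the numbers were not taken as pairs. With the replicate block Mmp17 had a log2 fold change of 0.32 (unadjusted p = 0.0485 by edgeR) and Timp1 an unadjusted p of 0.0824. Depth limits Timp1 and Mmp8, where 1 count decides a value.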
